A study of Homo sapiens with 6 samples.

Results

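The microRNA processing and silencing machinery is the set of proteins that makes a mature microRNA and then uses it to repress messenger RNAs. It was read here from 10 listed genes, DICER1, DROSHA, XPO5, TARBP2, AGO1, AGO2, AGO3, TNRC6A, TNRC6B and DDX6, matched by symbol to the array's probe annotation. The annotation named 5 of the 10, XPO5, TARBP2, TNRC6A, TNRC6B and DDX6, among 14884 named genes, with 1 probe set each. Among probe sets given exactly 1 symbol, DICER1, DROSHA, AGO1, AGO2 and AGO3 had none by symbol, older symbol, gene identifier or transcript accession. Probe sets with no symbol or with several were not searched, so the levels of these genes were not analysed here.

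The samples were 3 established human multiple myeloma lines, U266, KMS11 and RPMI8226, which are malignant plasma cells kept in culture. Each line contributed 1 array after transfection with 100 nM miR-10a mimic and 1 after 100 nM scrambled control, both delivered with HiPerFect and collected at 48 h. All 6 arrays were whole-transcript Affymetrix Human Gene 2.0 ST arrays, and all values are log2 units. The labels name no separate cultures, so within a line there is 1 array per treatment. A level belongs to 1 probe set, so each gene is compared with itself across arrays and not with another gene.

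A microRNA gene is transcribed as a long primary RNA. DROSHA and its partner DGCR8 cut out a hairpin, XPO5 carries the hairpin to the cytoplasm, and DICER1 with its partner TARBP2 trims it to a short duplex. One strand is held by an Argonaute protein (AGO1, AGO2, AGO3), which pairs through the seed near the strand's 5′ end, and the GW182 proteins TNRC6A and TNRC6B link Argonaute to the enzymes that shorten and decap the target, with the helicase DDX6 acting at the decapping and translation steps. Synthetic mimics are in general short duplexes that enter at Argonaute loading, after the steps served by DROSHA and XPO5. The arrays measured messenger RNA of these genes and not protein, loading or silencing activity.

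Reference sequences of miR-10a, the microRNA named in the mimic's label, are shown for orientation. They come from RefSeq (GRCh38.p14), and the form of the commercial mimic is not given in the labels. The 5p arm lies at chr17:48579904-48579926 and the 3p arm at chr17:48579864-48579885, both on the minus strand, and capitals mark the seed, bases 2 to 8.
hsa-miR-10a-5p: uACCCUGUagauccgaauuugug
hsa-miR-10a-3p: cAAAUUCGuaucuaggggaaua
The hairpin that DROSHA releases and XPO5 and DICER1 then handle is only part of the 110-base MIR10A entry, and its ends are not marked. The whole entry is printed, bases outside the arms included, with capitals marking the 2 arms, bases 22 to 44 and 63 to 84.
MIR10A hairpin: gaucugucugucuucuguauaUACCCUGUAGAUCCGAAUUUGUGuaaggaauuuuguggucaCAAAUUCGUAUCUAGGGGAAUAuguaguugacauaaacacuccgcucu

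The labels were checked first. Of 8 listed plasma cell genes, 6 were named, and all 6 passed the expression filter (a mean over all 6 arrays of at least 4.70, the median of named genes), not all of them in each line, while 0 of the 3 named B cell, 1 T cell, 3 myeloid and 1 stromal markers did. CD38, a plasma cell surface enzyme, was low outside RPMI8226, at 3.80 and 4.11 in U266, 4.92 and 4.88 in KMS11, and 9.90 and 9.99 in RPMI8226 (mimic and control). SLAMF7, another plasma cell surface marker, passed through U266 alone (7.23 and 7.73) and lay below the filter in KMS11 (3.27 and 3.47) and RPMI8226 (3.79 and 3.33), in the range of the B and T cell markers. FGFR3, a receptor gene activated by translocation in some myelomas, read 8.69 and 8.62 in KMS11 (mimic and control), against 3.78 and 3.56 in U266 and 3.95 and 3.93 in RPMI8226. Across tested genes, the arrays of one line correlated at 0.992 to 0.993, against 0.715 to 0.779 between lines. All 5 named machinery genes passed the filter.

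XPO5 was the member that separated the lines, and it was highest in RPMI8226. It encodes exportin-5, the nuclear export receptor for microRNA hairpins (probe set 17019425). Its level was 8.56 with mimic and 8.54 with control in U266, 8.20 and 8.30 in KMS11, and 9.13 and 9.19 in RPMI8226. No line's pair of arrays overlapped with another's, and mimic and control arrays of a line lay at most 0.092 apart.

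KMS11 stood -0.91 ± 0.081 log2 units from RPMI8226 in XPO5 (SE, limma, adjusted p = 0.000209), or 1.88-fold lower. U266 stood -0.61 ± 0.081 from RPMI8226, or 1.52-fold lower (adjusted p = 0.00102). The F test over the 3 lines gave an adjusted p of 0.000311, and the differences had the same sign in mimic arrays alone and in control arrays alone, at -0.93 and -0.90 for KMS11 minus RPMI8226 and -0.57 and -0.65 for U266 minus RPMI8226. Between the remaining pair, U266 was 0.30 ± 0.081 higher than KMS11, 1.23-fold (adjusted p = 0.0185). That last call was lost without the expression filter (0.0566) and without the KMS11 control (0.0675), the KMS11 mimic (0.124) or the U266 mimic array (0.131).

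DDX6 differed less, and again RPMI8226 was highest. The gene encodes a helicase of the RNA decay and translational repression complexes (probe set 16745085). DDX6 read 9.14 with mimic and 9.16 with control in U266, 9.20 and 9.08 in KMS11, and 9.51 and 9.34 in RPMI8226. Both RPMI8226 arrays lay above all 4 others, and the arrays of U266 and KMS11 overlapped. RPMI8226 stood further above U266 in mimic arrays (9.51 against 9.14) than in control arrays (9.34 against 9.16). The same held against KMS11, to a smaller extent.

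The DDX6 difference was -0.28 ± 0.089 for KMS11 minus RPMI8226 (limma, adjusted p = 0.0325) and -0.27 ± 0.089 for U266 minus RPMI8226 (adjusted p = 0.0349), each about 1.21- to 1.22-fold lower. U266 minus KMS11 was 0.0089, with a 95% interval from -0.21 to 0.23. The call for U266 minus RPMI8226 held in 6 of 14 alternatives and was lost with array medians centred (0.0615), and that for KMS11 minus RPMI8226 held in 9 of 14. The F test call (adjusted p = 0.0402) was near the threshold. It was lost without the filter (0.103), without RPMI8226 (0.936), without KMS11 (0.0567), and without any single array except the U266 control: 0.0819 without the RPMI8226 control, 0.248 without its mimic array, 0.0960 and 0.0818 without the KMS11 control or mimic array, and 0.0707 without the U266 mimic array.

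**Figure D1:**
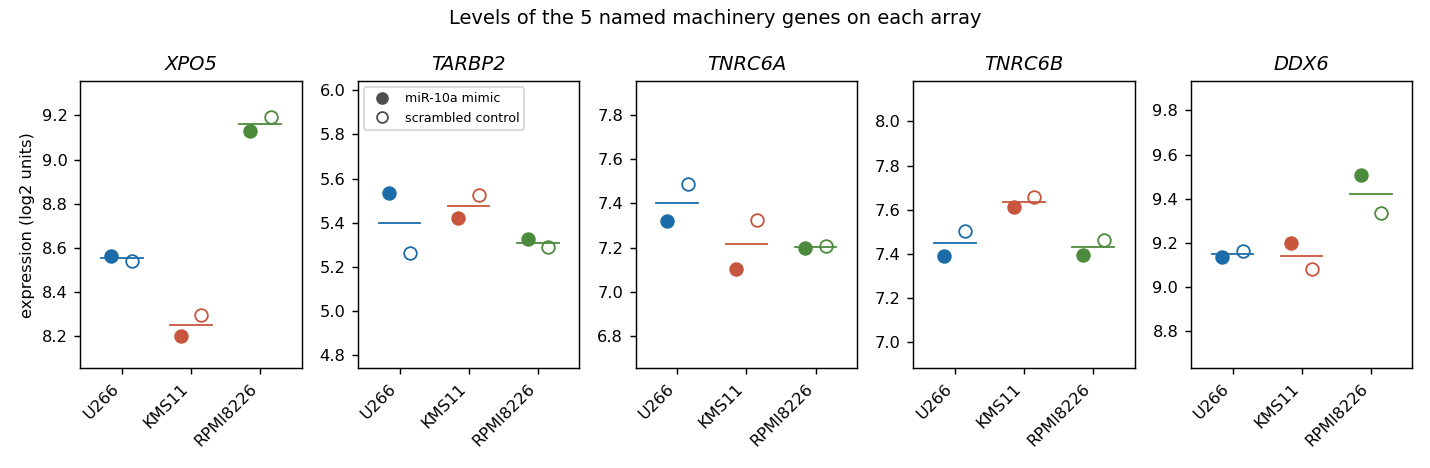
Expression (log2 units, y axis) of the 5 named machinery genes on each array, by line; filled points are miR-10a mimic arrays, open points scrambled-control arrays, and horizontal bars the mean of the 2 arrays of a line. Each panel spans the same number of log2 units. XPO5 separates all 3 lines, with RPMI8226 at 9.13 and 9.19, while in TARBP2 the U266 pair spans the points of KMS11 and RPMI8226.

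The dicing partner TARBP2 and the GW182 genes TNRC6A and TNRC6B did not pass the test for a difference between lines. TARBP2, the double-stranded RNA binding partner of DICER1 (probe set 16751857), had the lowest margin over the filter, with a mean of 5.39. It read 5.54 with mimic and 5.27 with control in U266, 5.42 and 5.53 in KMS11, and 5.33 and 5.29 in RPMI8226. Its line means spanned 0.17, less than the 0.27 between the 2 U266 arrays (limma F test, adjusted p = 0.403).

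TNRC6A, a GW182 scaffold protein gene (probe set 16817119), read 7.32 with mimic and 7.49 with control in U266, 7.10 and 7.33 in KMS11, and 7.20 and 7.21 in RPMI8226. The U266 arrays were above those of RPMI8226 but overlapped with those of KMS11. Line means spanned 0.20, and the widest gap within a line was 0.22 (F test, adjusted p = 0.137). U266 minus RPMI8226 was 0.20, with a 95% interval from -0.02 to 0.42.

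TNRC6B, its paralog (probe set 16930383), read 7.39 with mimic and 7.51 with control in U266, 7.61 and 7.66 in KMS11, and 7.40 and 7.46 in RPMI8226. Both KMS11 arrays lay above all others. KMS11 minus RPMI8226 was 0.21 ± 0.079 (SE, limma, adjusted p = 0.0625) and U266 minus KMS11 was -0.19 ± 0.079 (adjusted p = 0.0833), so neither passed. The F test gave an adjusted p of 0.0886, which fell to 0.0329 when only the upper 25% of genes by level were tested and to 0.0449 with a variance trend.

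**Figure D2:**
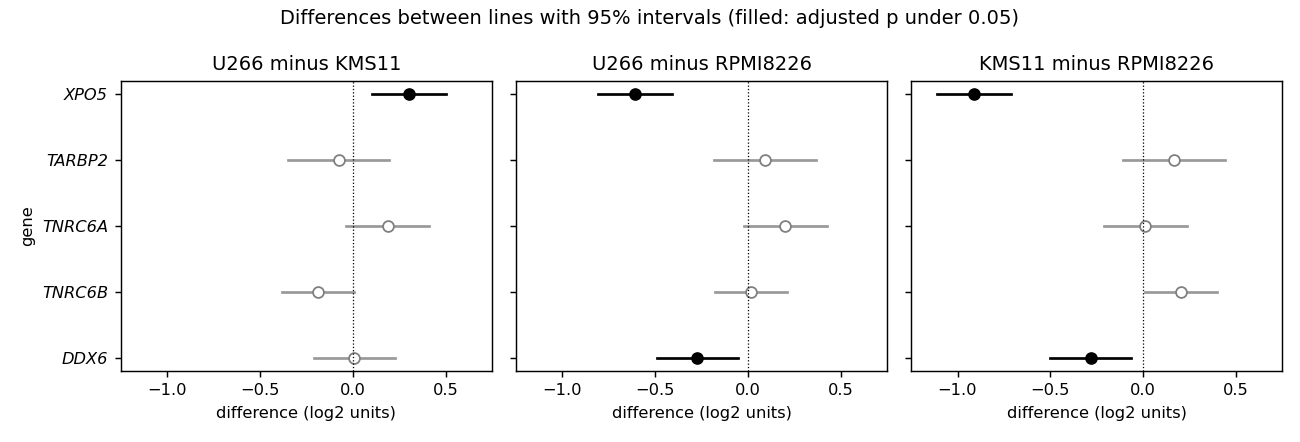
Differences between lines (log2 units, x axis) for the 5 genes, 1 panel per pair of lines; points are limma estimates, bars 95% confidence intervals, and filled points have an adjusted p under 0.05. XPO5 is filled in all 3 panels, from -0.91 to 0.30, and DDX6 only in the 2 panels against RPMI8226.

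The members' calls were set beside those of all genes. Of the 5 named members, 2 passed the F test, 40%, where 82.4% of the 7442 tested genes did. In U266 against KMS11, 1 of 5 was called (63.8% of all tested genes in either direction), in U266 against RPMI8226 2 of 5 (67.4%), and in KMS11 against RPMI8226 2 of 5 (65%). The 2 calls against RPMI8226 were the same genes, XPO5 and DDX6, lower in both U266 and KMS11, a pattern held by 17.6% of tested genes; both comparisons share the RPMI8226 arrays.

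The median range between line means was 0.21 log2 units over the members and 0.77 over all tested genes. A range wider than that of XPO5 (0.91) was found in 41.2% of tested genes. For DDX6 (0.28) the share was 86.5%, for TNRC6B 91.8%, for TNRC6A 92.1% and for TARBP2 94.5%. These shares describe 5 chosen genes and were not tested.

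**Figure D3:**
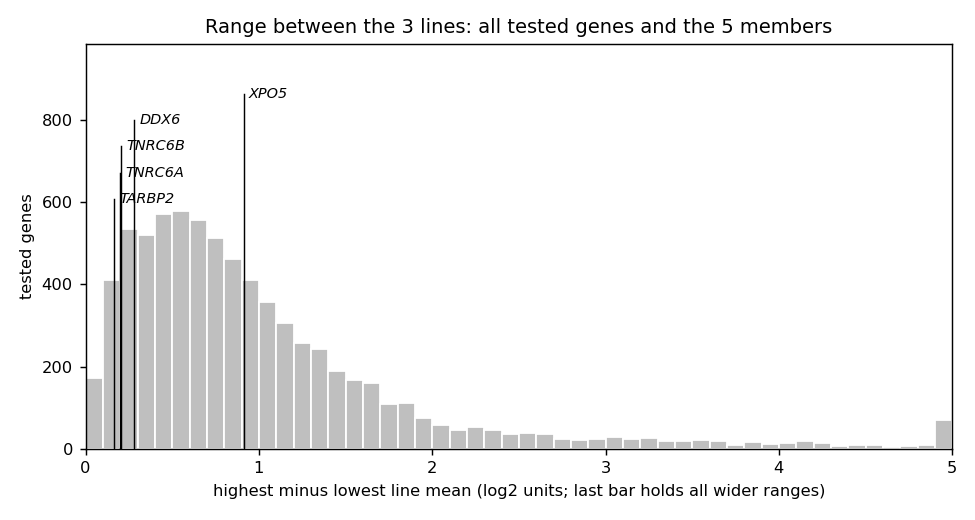
Number of tested genes (y axis) by the range between the highest and lowest line mean (log2 units, x axis), with vertical lines at the 5 machinery genes; the last bar also holds the 65 genes with ranges of 5 or more. XPO5 lies at 0.91, while the other 4 lie between 0.17 and 0.28, left of the median of 0.77.

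The genes whose 6 values followed XPO5 most closely were OXNAD1 (Pearson's r = 0.999), NOTCH2 (0.998) and FCHSD2 (0.998). Their line means spanned 1.45, 0.92 and 1.21. For DDX6 they were KLHL15 (0.987), SNAI3 (0.983) and LINC00663 (0.982). The 6 values come from 3 lines, so high correlations are common: 328 of 7441 genes exceeded 0.95 with XPO5 and 43 with DDX6.

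No machinery gene passed the test for a change with miR-10a mimic. With the line as a block, limma called 0 of the 5 members, 0 at an unadjusted p under 0.05, and 0 of all 7442 genes (0%), of which 403 (5.42%) had an unadjusted p under 0.05. The median change of the members was -0.05 log2 units, against -0.0029 over all tested genes. Single changes ran from -0.22 to 0.27, and the SD of the change over all tested genes was 0.18 to 0.19 in each line.

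TNRC6A had the widest mean change, from the levels given above: -0.17 in U266, -0.22 in KMS11 and -0.01 in RPMI8226. TNRC6A averaged 7.21 ± 0.11 with mimic and 7.34 ± 0.14 with control (SD, n = 3 each), a mean change of -0.13 with a 95% interval from -0.32 to 0.05 (limma, adjusted p = 0.917). Its change was -0.20 without RPMI8226 and -0.09 without KMS11. A wider mean change was found in 18.2% of tested genes.

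TNRC6B gave -0.12 in U266, -0.05 in KMS11 and -0.07 in RPMI8226, the most even changes among the members. It averaged 7.47 ± 0.13 with mimic and 7.54 ± 0.10 with control (SD, n = 3 each), a mean change of -0.08 with an interval from -0.24 to 0.08 (limma, adjusted p = 0.920). Both GW182 members were thus lower with mimic in all 3 lines, by sign alone, as were 13.8% of tested genes. The GW182 gene outside the members, TNRC6C, did not share this. It gave -0.05 in U266, -0.06 in KMS11 and 0.18 in RPMI8226, a mean of 0.02.

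XPO5 gave 0.02 in U266, -0.09 in KMS11 and -0.06 in RPMI8226, a mean of -0.05 with an interval from -0.21 to 0.12 (limma, adjusted p = 0.953). Its mean was -0.02 without KMS11 and -0.08 without U266. DDX6 gave -0.03, 0.12 and 0.17 in the same order of lines, a mean of 0.09 with an interval from -0.09 to 0.27 (limma, adjusted p = 0.917), and 0.05 without RPMI8226 or 0.15 without U266. TARBP2 gave 0.27, -0.11 and 0.04, a mean of 0.07 with an interval from -0.16 to 0.29 (limma, adjusted p = 0.943), and -0.03 without U266. The widest bound of the 5 intervals, not corrected for the number of genes, corresponds to 1.24-fold.

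**Figure D4:**
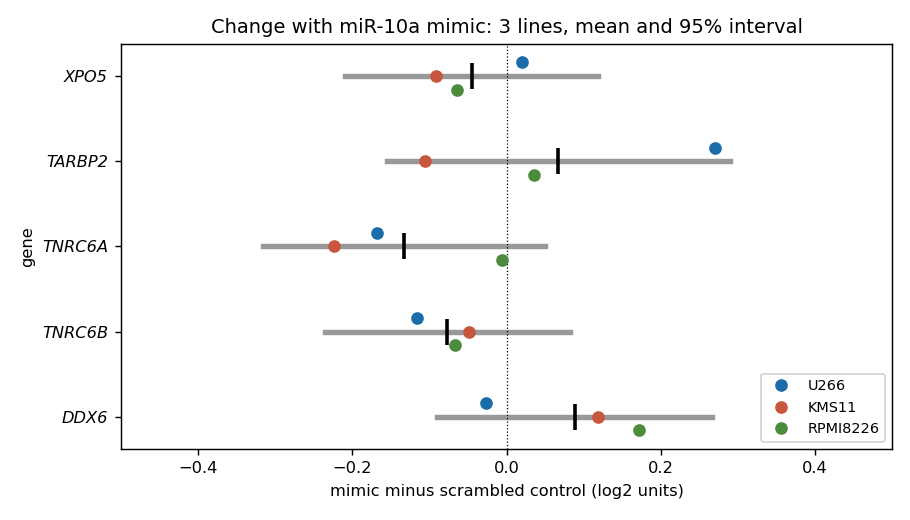
Change with miR-10a mimic (mimic minus scrambled control, log2 units, x axis) for the 5 genes; coloured points are the 3 lines, black ticks the mean, and grey bars the 95% confidence interval of the mean from limma. All 5 intervals include 0, and the points of TNRC6A and TNRC6B all lie below 0.

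Whether a line responded unlike the others was tested by giving each line in turn its own mimic term. Of 15 combinations of member and line, 0 passed in limma, 0 had an unadjusted p under 0.05, and 0% of all tested genes were called in each line. The widest estimate was that of TARBP2 in U266, 0.30 above the other 2 lines, with an interval from -0.10 to 0.71 (adjusted p = 0.907). That fit leaves 1 residual degree of freedom, so its intervals are wide and a difference of moderate size was not detectable.

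Other genes of the pathway were read from 5 lists, of which 60 of 97 genes were named and 48 tested. The F test called 45 of 48 (93.8%, against 82.4% of all tested genes), and the mimic test called 0, with 1 at an unadjusted p under 0.05, GIGYF2, a translational repressor gene (-0.17 ± 0.03, SD of 3 lines, limma, adjusted p = 0.902). Their median range between lines was 0.73, against 0.77 over all tested genes.

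In nuclear processing and export, 12 of 12 tested genes passed the F test, where 82.4% of all tested genes did. LIN28B, which blocks maturation of let-7 microRNAs, had the widest range: 6.98 with mimic and 7.12 with control in U266, 2.95 and 2.89 in KMS11, and 6.77 and 6.67 in RPMI8226. The KMS11 values lay below the filter, in the range of the PIWI genes described further on, and it is unknown whether they stood above background, so no size is given for the difference. DGCR8, the partner of DROSHA, ran opposite to XPO5 in its order of lines, at 5.47 and 5.42 in U266, 5.82 and 5.83 in KMS11, and 5.15 and 5.03 in RPMI8226, with KMS11 0.73 ± 0.083 above RPMI8226 (adjusted p = 0.000531). SRRT, a cap-binding complex partner, and METTL3, an RNA methyltransferase, were each lower in KMS11 than in U266, SRRT by a U266 minus KMS11 difference of 1.03 and METTL3 by 1.04 (adjusted p = 0.000432 and 0.000133).

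In dicing and loading, 5 of 5 tested genes passed the F test (82.4% of all tested genes). HSPH1, a chaperone gene of the HSP110 family, was 1.88 log2 units higher in U266 than in RPMI8226 (limma, adjusted p = 1.18e-05). PTGES3, the p23 cochaperone of HSP90, was highest in KMS11, at -0.82 for U266 minus KMS11 (adjusted p = 0.000331). HSPA4 was lowest in RPMI8226, at 0.67 for U266 minus RPMI8226 (adjusted p = 0.000614). TSN, a subunit of a nuclease that clears passenger strands, and STIP1, a cochaperone, gave mimic changes of 0.06 ± 0.08 and 0.07 ± 0.08 (SD of 3 lines).

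Among silencing effectors and decay enzymes, 15 of 17 passed the F test (88.2%, against 82.4% of all tested genes). The exceptions were CNOT11 and EDC4. TNRC6C, the third GW182 gene, had line means that spanned 1.81. It read 6.45 with mimic and 6.51 with control in U266, 8.26 and 8.32 in KMS11, and 6.60 and 6.42 in RPMI8226. KMS11 minus RPMI8226 was 1.77 ± 0.096 (SE, limma, adjusted p = 3.69e-05), against 0.01 for TNRC6A and 0.21 for TNRC6B, and the difference between paralogs was not tested. PAN2, a deadenylase gene, was lowest in U266, at -1.43 for U266 minus RPMI8226 (adjusted p = 4.37e-05). EIF4E2, a cap-binding repressor gene that partners GIGYF2, was highest in U266, 1.03 above RPMI8226 (adjusted p = 0.000197). DCP1B, a decapping cofactor gene, gave a mimic change of 0.15 ± 0.10 (SD of 3 lines).

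Among genes of microRNA and Argonaute turnover, 12 of 13 passed (92.3%, against 82.4% of all tested genes), EXOSC10 being the exception. IPO8, an import receptor that binds Argonaute, was highest in KMS11 (7.15 and 7.22, mimic and control) and lowest in RPMI8226 (6.24 and 5.93), a difference of 1.10 ± 0.12 (SE, limma, adjusted p = 0.000518). ERI1, an RNA exonuclease gene, was likewise 1.52 higher in KMS11 than in RPMI8226 (adjusted p = 4.73e-05). TENT4B, a poly(A) polymerase gene, was lowest in U266, at -1.43 for U266 minus RPMI8226 (adjusted p = 3.47e-05). ZSWIM8, a ubiquitin ligase gene of target-directed microRNA decay, gave a mimic change of 0.05 ± 0.29 (SD of 3 lines), with its spread wider than the mean.

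The germ line PIWI pathway, which uses other small RNAs, was mostly below the filter. Of 11 named genes, 10 averaged between 2.40 and 3.56, PIWIL1, PIWIL2, PIWIL3 and PIWIL4 among them. TDRKH, a Tudor domain gene, was the tested exception and was lowest in RPMI8226. It was 1.94 higher in U266 than in RPMI8226 (limma, adjusted p = 3.59e-05) and 1.76 higher in KMS11 than in RPMI8226 (adjusted p = 6.05e-05).

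**Figure D5:**
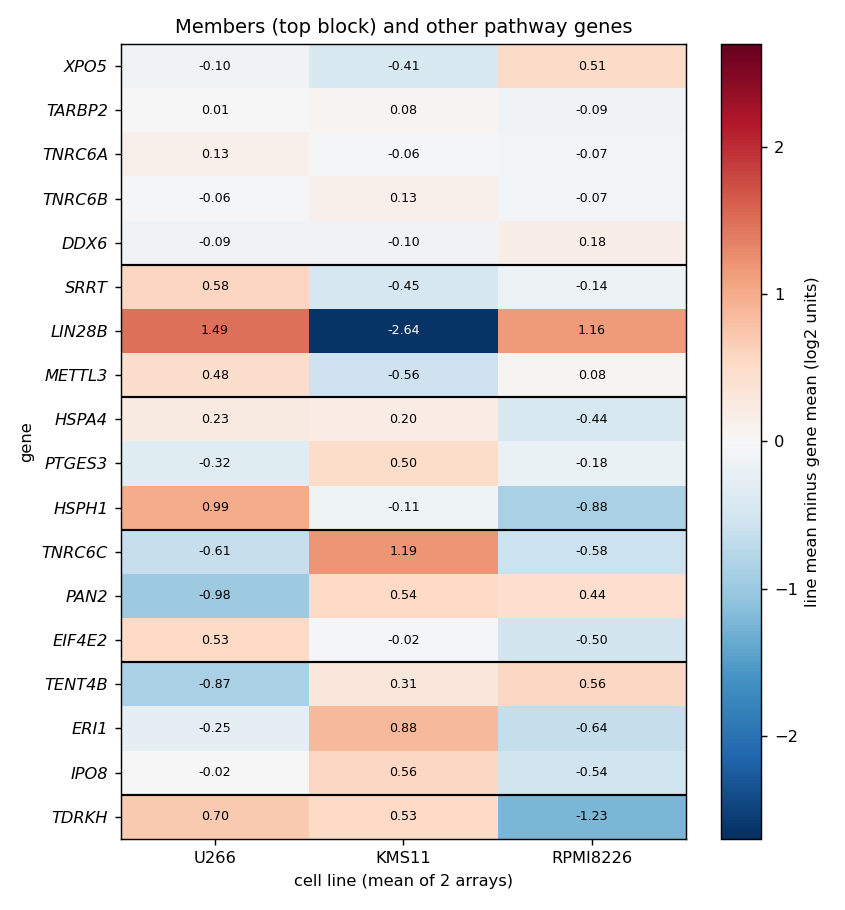
Line means relative to each gene's mean over the lines (log2 units, colour and printed value) for the 5 members in the top block and, below, the pathway genes with the widest ranges, in blocks of nuclear processing, dicing and loading, silencing and decay, turnover, and the PIWI pathway. XPO5 spans 0.91 and the other members 0.17 to 0.28; the lower blocks were chosen for wide ranges, among them LIN28B, whose KMS11 values (2.95 and 2.89) lie below the filter.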

How the data were processed

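The single deposited table holds log2 values for 53617 probe sets on 6 arrays, made by the authors. Per the submitters' processing notes the tool was Affymetrix Expression Console 1.3.0; the background correction, normalization, summarization and genome build are not stated, so centring between arrays is unknown, and no detection calls were used. Array medians were 3.61 to 3.66. The platform annotation gave 16098 probe sets exactly 1 symbol. The remaining 37519 were left out, and those with no symbol were not told apart from any with several. The probe set with the highest mean stood for a gene. Genes at or above the median level (4.70) were tested, 7442 of 14884.

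Tests used limma 3.58.1 in R 4.3.3 (lmFit, eBayes; tested on simulated data) with line and treatment terms, two-sided p-values, Benjamini-Hochberg adjustment over all tested genes, a threshold of 0.05 and 2 residual degrees of freedom. Cell line labels pair the arrays: deviations of a line's arrays from treatment means correlated at 0.970 in U266, 0.967 in KMS11 and 0.970 in RPMI8226. P-values measure only the spread between these arrays, which may be technical, and their number limits precision. The members and lists were chosen with earlier results of these data known. Named genes are the members, markers, per list up to 3 called genes with the widest range between lines and up to 2 with the widest mimic change, and the 3 genes most like each called member; CNOT11, EDC4 and EXOSC10 were singled out after their values were seen. HNRNPA2B1, named by this rule, gave -0.08 ± 0.09 with mimic (SD of 3 lines). Alternatives covered filter, scaling, probe set choice, variance trend, block, treatment term and left-out lines or arrays.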

Additional observations from a re-analysis of the deposited data

How the results depend on the processing

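No mimic call arose: with no replicate block (the cell line left out of the fit) limma called 0 genes, and 0 under every other alternative run, lines left out included. The mimic test was not run with single arrays left out or without the treatment term. In the 10 alternatives where it was run, the sign of the mean mimic change held for XPO5, TNRC6A, TNRC6B and DDX6. TARBP2 turned to -0.03 without U266. Against 2 members past the F test, 1 passed without the filter and 3 with the upper 25% of genes or a variance trend. TARBP2 was not among the upper 25% of genes, so all counts in that setting leave it out. Leaving out a line or an array gave 1 to 2. In U266 minus KMS11, 0 members passed without the filter, and 2 with the upper 25% of genes or a variance trend, against 1. Leaving out an array gave 0 to 1. In U266 minus RPMI8226, 1 passed without the filter or with array medians centred, 3 with the upper 25% of genes, and 1 to 2 with a line or array left out, against 2. In KMS11 minus RPMI8226, 1 passed without the filter, 3 with the upper 25% of genes or a variance trend, and 1 to 2 with an array left out, against 2. The share of all genes past the F test was 50.8% without the filter, against 82.4% with it. It was 93.4% with the upper 25% of genes and 83.7% with a variance trend. With a line or array left out it was 63.8% to 80.3%. Shares of all genes were not computed for the pairwise counts under the alternatives. XPO5 kept its F test call in 16 of 16 alternatives and DDX6 in 8 of 16. Centring moved array medians by at most 0.046 log2 units. Signal over background was not given, so weak probe sets such as TARBP2 are less certain.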
